A study of Mus musculus with 335 samples.

Results

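Primary mammary tumours of MMTV-PyMT mice were compared between the BL6 and the FVB background. The BL6 tumours were 6 libraries of 6 mice, taken by their titles, of which 4 read C57BL6 and 2 read C57BL6N. The FVB tumours were 18 libraries of 14 mice, taken by deposited column names that mark FVB, PyMT and a primary tumour. Together they made 24 of the 335 libraries of the series, which profiled tumours, metastases, cell lines and healthy tissue of transgenic and grafted mouse mammary cancer models by RNA-seq. All 20 mice carried the same transgene, in which the promoter of mouse mammary tumour virus drives polyoma middle T antigen in mammary epithelium, and all were untreated. Tumours of BL10 (6 mice), CAST (7 mice) and MOLF (8 mice) and lung metastases of BL6 (9 libraries of 6 mice) and FVB (22 libraries of 13 mice) with that transgene were used for comparison. Ages, and whether the BL6 mice were inbred or the offspring of a cross, were not given in the sources used here.

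Polyoma middle T antigen recruits Src, Shc and phosphoinositide 3-kinase, so that the tumours grow under constant growth factor type signalling. Inbred strains differ in many alleles, among them those of the major histocompatibility complex (MHC), whose class I molecules show peptides of the cell itself and whose class II molecules show peptides taken up by antigen-presenting cells. C57BL/6 and C57BL/10 mice carry the MHC haplotype H-2b and FVB mice H-2q.

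Values are RPKM, read counts set relative to transcript length in kilobases and to library size, as deposited. Counted reads per library were 23323250 to 49249452 in BL6 tumours (median 28850902) and 12740762 to 31565145 in FVB tumours (median 25346582). Libraries of a mouse were averaged, so n is 6 BL6 and 14 FVB mice, and differences are BL6 minus FVB on the log2(RPKM + 1) scale, which understates the change of genes of low value. The luminal keratin Krt18 was at 223 to 668 RPKM in BL6 and 181 to 1570 RPKM in FVB libraries and Epcam, an epithelial adhesion molecule, at 199 to 367 and 129 to 550 RPKM, so that all 24 libraries held epithelial RNA. In bulk tissue, fewer cells of a type and less RNA per cell cannot be told apart.

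Several libraries stood apart or had labels that conflict. BL6 replicate 6 bears 1 mouse number in its title and another in its deposited column, the second that of a BL6 mouse with a metastasis, and held 607 RPKM of Sftpc, a surfactant gene of lung alveolar type 2 cells. Its summed level of 9 alveolar type 2 genes was 701 RPKM, against 18.9 to 59.7 RPKM in the other BL6 tumours and 20.0 to 52.5 RPKM in FVB tumours. That metastasis had 0.364 RPKM of Sftpc and a sum of 19.3 RPKM, within the range of the tumours, while metastases of the other 5 BL6 mice summed to 277 to 7778 RPKM. Results are therefore given with and without BL6 replicate 6. FVB replicate 9 has MOLF as its strain entry and was kept as FVB by its title. FVB replicate 17 had 0.0287 RPKM of Xist and 15.2 RPKM of the Y-linked gene Ddx3y, against at least 31.6 and at most 0.0474 RPKM in the other 23 libraries. Library names fall into series. Of the BL6 tumours, the 4 titled C57BL6 have names of the series sample101x and the 2 titled C57BL6N names of the series KS, so that substrain and series cannot be told apart. BL6 replicate 6 is 1 of the 2 named KS. Every value given within KS therefore includes it, and no fit within KS left it out. The FVB libraries comprise 8 named KS, 5 named RNAPT, a series with no BL6 tumour, and 5 named sample101x.

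BL6 tumours were higher than FVB tumours in the MHC class II chain genes H2-Eb1, H2-Aa and H2-Ab1, and also in the ribosomal protein gene Rpl29, the antiviral deaminase gene Apobec3 and the mTOR inhibitor gene Deptor. They were lower in several class I genes, in the ERK phosphatase gene Dusp4, the amino acid transporter gene Slc7a5 and the prostaglandin synthase gene Ptges. Of 11465 genes tested, 320 (2.79%) were higher and 435 (3.79%) lower in BL6 tumours at an adjusted p under 0.05 (limma, Benjamini-Hochberg). At an unadjusted p under 0.05 there were 2754 genes. Differences of at least 2-fold were few, with 56 genes higher and 30 lower. The median difference over all genes tested was -0.03, and 5255 of the 11465 differences were positive. Counts within the gene lists below are to be read beside these values for all genes. For 95 genes (0.829% of those tested) the BL6 and FVB mice did not overlap. Without BL6 replicate 6, 259 genes were higher and 236 lower. Of the 320 higher and 435 lower genes, 217 and 219 were still called without it. Of 47 named genes called, 8 were not called without it, namely Acta2, Tagln, Tap2, Cyp2f2, Sesn2, Lipe, Uqcrc1 and Dbp, at adjusted p between 0.0510 and 0.0964. The 12 largest differences in each direction were named only where called without BL6 replicate 6, so the named genes depend on it less than all called genes. Rescaling each library to its median ratio turned the split round, to 448 higher and 336 lower, with a median difference of 0.00. Counts depended on single BL6 mice, with 364 genes called without replicate 4 and 451 without replicate 1. With the series of library names as a term 218 genes were higher and 271 lower, and 17 of the 47 named genes were not called. Within the series sample101x (4 BL6 and 4 FVB mice) the counts were 37 and 10, and within KS (2 and 8 mice) 345 and 945. Against the 5 FVB columns named PT alone, all from RNAPT, the counts were 412 and 430, with 14 of the 47 not called at adjusted p between 0.0685 and 0.204 (Acta2, Cited1, Cnn1, Cry1, H2-Q2, Hsph1, Junb, Lipe, Nrtn, Scand1, Sesn2, Sftpc, Tagln and Tap2), and among columns of both strains named PTAX they were 80 and 35.

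**Figure D1:**
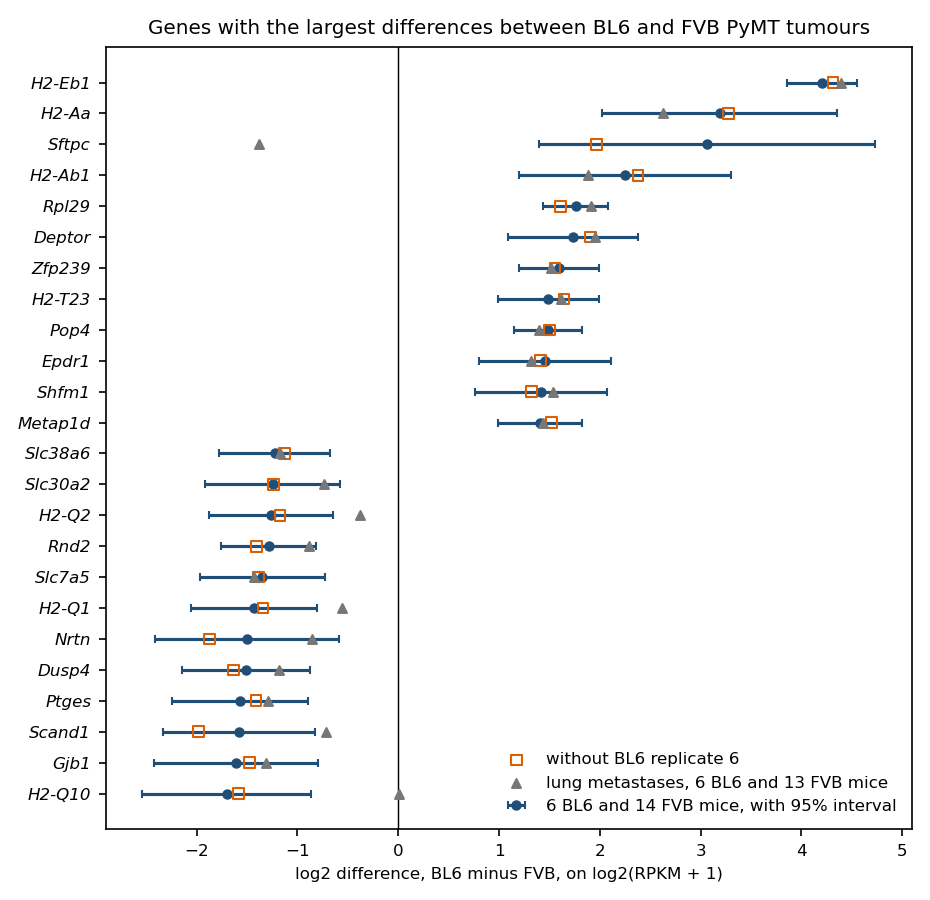
Difference in log2(RPKM + 1), BL6 minus FVB, in tumours for 12 named genes above 0 and 12 below 0. They had the largest differences among genes also called without BL6 replicate 6, 2-fold or more apart and at a mean of 5 RPKM or more in the higher strain. Predicted and small RNA genes were left out. Circles and bars are the estimate and 95% interval over 6 BL6 and 14 FVB mice, squares the estimate without BL6 replicate 6, and triangles the difference between lung metastases of 6 BL6 and 13 FVB mice. H2-Eb1 leads at 4.20, and Sftpc is at 3.07 with BL6 replicate 6 and at 1.97 without it.

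The largest difference was that of H2-Eb1, one of the MHC class II genes, which encode the chains that present peptides to CD4 T cells. Of 7 class II list members tested, 3 were higher in BL6 and 0 lower, and all 7 differences were positive, with a median of 1.14 against -0.03 over all genes. The 3 were H2-Eb1, the E beta chain, H2-Aa, the A alpha chain, and H2-Ab1, the A beta chain. The promoters of H2-Aa and H2-Eb1 are shown because both genes were higher in BL6 and class II promoters are known for a conserved inverted CCAAT element, the Y box. They are the 250 bases before the RefSeq start on build GRCm38.p6, the C57BL/6J assembly, with the Y box letters CTGATTGG in capitals. The H2-Aa window is chr17:34287824-34288073 on the minus strand and the H2-Eb1 window chr17:34305617-34305866 on the plus strand.
H2-Aa: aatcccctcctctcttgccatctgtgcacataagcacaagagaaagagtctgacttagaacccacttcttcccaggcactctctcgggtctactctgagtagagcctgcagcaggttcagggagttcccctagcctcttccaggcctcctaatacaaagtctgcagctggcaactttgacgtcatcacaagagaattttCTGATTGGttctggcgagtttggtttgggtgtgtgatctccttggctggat
H2-Eb1: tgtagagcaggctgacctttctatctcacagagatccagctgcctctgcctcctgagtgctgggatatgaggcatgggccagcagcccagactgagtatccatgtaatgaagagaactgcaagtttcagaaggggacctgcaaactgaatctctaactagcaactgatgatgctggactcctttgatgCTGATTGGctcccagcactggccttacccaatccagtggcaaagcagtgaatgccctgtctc
The 8 letters began 51 bases before the start of H2-Aa and 62 bases before that of H2-Eb1. Searched on both strands, they occurred in 3.83% of all 32851 promoter windows of this length. No FVB sequence was used here.

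H2-Eb1 was at 24.7, 18.3, 40.3, 32.5, 22.4 and 16.5 RPKM in BL6 replicates 1 to 6. In FVB tumours it was at 0.127 to 1.00 RPKM, with a median of 0.337. Every BL6 tumour was above every FVB tumour. The difference was 4.20 ± 0.17 (SE; 95% interval 3.85 to 4.55; adjusted p = 1.64e-13) and 4.31 without BL6 replicate 6. Mice of H-2b and H-2q are both known to lack a complete E molecule on the cell surface.

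H2-Aa was at 68.5, 47.6, 100.2, 93.4, 58.9 and 48.5 RPKM in BL6 replicates 1 to 6, against 0.361 to 31.7 RPKM (median 6.63) in FVB. The groups did not overlap. The difference was 3.19 ± 0.56 (adjusted p = 0.00214) and 3.28 without BL6 replicate 6. H2-Ab1 ran from 21.5 through a median of 37.4 to 57.4 RPKM in BL6, against 1.07, 7.35 and 27.2 RPKM in FVB, with a difference of 2.25 ± 0.50 (adjusted p = 0.0104). Here the highest FVB tumours reached into the BL6 range. Within the 2 series of library names H2-Aa differed by 2.86 and 2.28 and H2-Ab1 by 2.03 and 1.74, with adjusted p between 0.110 and 0.224, while H2-Eb1 was called in both.

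The rest of the class II pathway differed less. Cd74, the invariant chain that guards the peptide groove, was at 60.9 to 163 RPKM in BL6 and 5.77 to 142 RPKM in FVB (median 64.7), a difference of 1.14 ± 0.49 (adjusted p = 0.160). The peptide loading chains H2-DMa and H2-DMb1 differed by 0.22 and 0.70 and Ciita, the master regulator of class II transcription, by 0.13, and none of these passed the threshold. Of 12 macrophage genes tested limma called 0, also at an unadjusted p under 0.05, and their summed level was 146 to 263 RPKM in BL6 and 87.5 to 380 RPKM in FVB tumours. C1qa and C1qb, complement genes of tissue macrophages, differed by 0.40 and 0.65 (adjusted p = 0.433 and 0.224). The part of class II positive cells in the result was not tested.

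**Figure D2:**
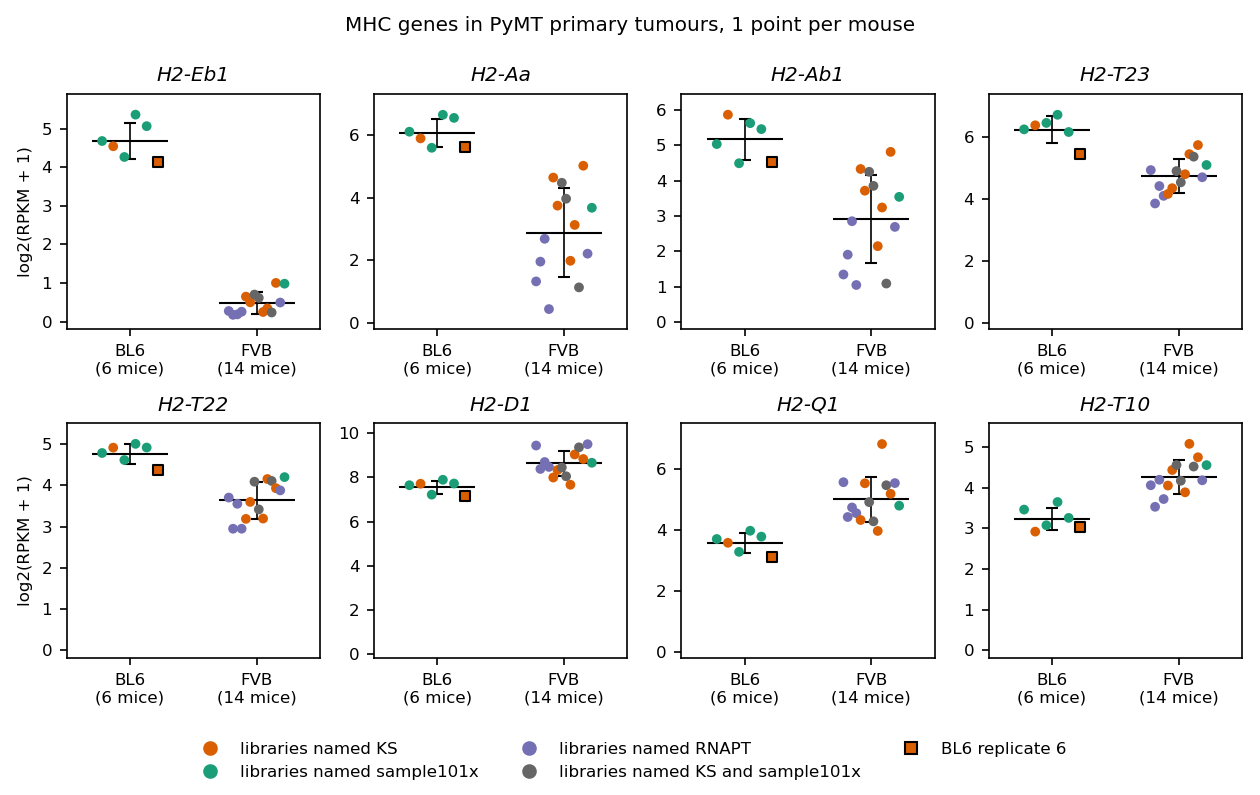
Level of 8 MHC genes as log2(RPKM + 1) in 6 BL6 and 14 FVB mice. Each point is a mouse, coloured by the series of its library names, with the line at the mean and the bar at 1 SD, and the square is BL6 replicate 6. H2-Eb1, H2-Aa and H2-T22 show no overlap, while H2-D1, H2-Q1 and H2-T10 are lower in BL6.

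Ratios within a tumour set the chains against Cd74. They were chosen after the values were seen, and 6 ratios were tested. H2-Eb1 was 0.143 to 0.294 of Cd74 (median 0.231) in BL6 and 0.00156 to 0.0306 (median 0.00643) in FVB, a 32.9-fold difference. H2-Aa was 0.377 to 0.796 (median 0.615) in BL6 and 0.0198 to 0.230 (median 0.176) in FVB, 5.25-fold. H2-Ab1 was 0.253 to 0.367 (median 0.322) and 0.0447 to 0.224 (median 0.166), 2.57-fold. In all of these 3 the strains did not overlap, and the two-sided exact permutation p was 5.16e-05, the smallest the test can give (0.000103 after Benjamini-Hochberg adjustment). H2-DMa relative to Cd74 went the other way, at 0.0158 to 0.0357 in BL6 against 0.0220 to 0.224 in FVB (0.550-fold, exact permutation p = 0.0131, adjusted 0.0131). A ratio shows that the genes differed unequally, not which of them changed.

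The other strains of the series, each with the same transgene, place these levels. H2-Eb1 was at 16.5 to 40.3 RPKM in BL6, 19.1 to 38.7 in BL10, 3.85 to 17.8 in CAST, 0.303 to 0.704 in MOLF and 0.127 to 1.00 in FVB tumours. The BL10 range lay within that of BL6, CAST reached the low end of BL6, and MOLF lay within the range of FVB. The ratio of H2-Eb1 to Cd74 was 0.151 to 0.228 in BL10 and 0.132 to 0.221 in CAST, but 0.00344 to 0.00574 in MOLF. H2-Aa did not follow that grouping, since MOLF tumours had 18.8 to 57.7 RPKM, all above the FVB median and some within the BL6 range. Build mm9, named in the submitters' processing notes, is C57BL/6J sequence. Reads of another haplotype that fail to align and a lower RNA level cannot be told apart in these values, and the genes of this family share sequence with one another.

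**Figure D3:**
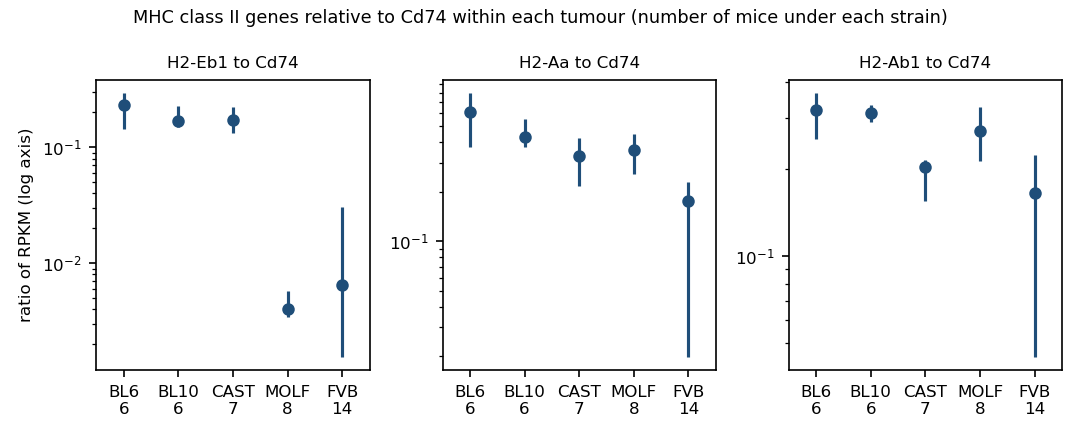
Ratio of H2-Eb1, H2-Aa and H2-Ab1 to Cd74 within each tumour, on log axes, in tumours of BL6, BL10, CAST, MOLF and FVB mice (6, 6, 7, 8 and 14 mice). Points are medians and lines run from the lowest to the highest mouse, and the BL6 range lies above the FVB range in each panel.

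Class I genes moved in both directions. Of 10 genes of class I presentation tested, 0 were higher and 2 lower, with a median of -0.57. Of 12 other class I genes of the MHC region, 2 were higher and 4 lower, with a median of -0.69. Over all genes tested 2.79% were higher and 3.79% lower. H2-T23, which encodes Qa-1, a ligand of the NK cell receptor CD94/NKG2A, was at 42.3 to 103 RPKM (median 78.0) in BL6 and 13.4 to 52.1 RPKM (median 25.8) in FVB, a difference of 1.49 ± 0.24 (adjusted p = 0.00112). BL6 replicate 6 was its lowest and the only BL6 tumour within the FVB range. H2-T22, a ligand of some gamma delta T cells, was at 19.7 to 31.1 RPKM in BL6 and 6.71 to 17.4 RPKM in FVB without overlap, a difference of 1.13 ± 0.19 (adjusted p = 0.00133).

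The classical class I gene H2-D1 was lower in BL6, at 143 to 237 RPKM (median 204) against 203 to 727 RPKM (median 380) in FVB, a difference of -1.08 ± 0.23 (adjusted p = 0.00858). H2-K1, the other classical gene, differed by 0.11 (adjusted p = 0.806). The gene H2-T10 was at 6.56 to 11.5 RPKM in BL6 and 10.5 to 32.7 RPKM in FVB (-1.03 ± 0.18, adjusted p = 0.00213), and H2-Q1 at 7.75 to 14.9 and 14.8 to 113 RPKM (-1.43 ± 0.30, adjusted p = 0.00716). H2-Q10, whose product is secreted, differed by -1.70 ± 0.40 (adjusted p = 0.0147) and H2-Q2 by -1.26 ± 0.29 (adjusted p = 0.0147). Tap2, a subunit of the peptide transporter, was lower by -0.80 ± 0.21 (adjusted p = 0.0240), and at adjusted p = 0.0681 without BL6 replicate 6. With the series as a term H2-T22, H2-D1, H2-Q1, H2-Q10 and Tap2 were at adjusted p between 0.0523 and 0.125. Near-identical copies share reads in this family, so the split between its members is uncertain. Relative to B2m, the light chain of all class I molecules, H2-T23 was at 0.0733 to 0.302 in BL6 and 0.0284 to 0.0969 in FVB (3.20-fold, exact permutation p = 0.000155, adjusted 0.000232) and H2-D1 at 0.247 to 0.694 and 0.584 to 1.27 (exact permutation p = 0.000464, adjusted 0.000557).

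Interferon response genes varied widely among FVB tumours. Of 22 interferon-stimulated genes limma called 0, 14 had an unadjusted p under 0.05, and all 22 differences were negative, with a median of -0.91. Their summed level was 146 to 325 RPKM (median 222) in BL6 and 61.6 to 1042 RPKM (median 484) in FVB tumours. The only FVB tumour below all BL6 tumours was replicate 17, the one with Y-linked RNA, and the next lowest was at 173 RPKM. Most FVB tumours lay above all BL6 tumours. The highest was replicate 9, the one with MOLF as its strain entry. Irf7, a transcription factor of the interferon response, was at 9.65 to 38.6 RPKM in BL6 and 3.50 to 223 RPKM in FVB (-1.39, adjusted p = 0.124), and Bst2, which tethers budding virus, differed by -0.85 (adjusted p = 0.160). Of 9 guanylate-binding and IRG GTPase genes 0 were called, 3 had an unadjusted p under 0.05, and the median was -0.55. Over all 11465 genes, 2754 had an unadjusted p under 0.05 and 5255 a positive difference.

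Among genes reported to vary between inbred strains, 1 of 10 tested was called, against 755 of all 11465. Apobec3, a cytidine deaminase that restricts retroviruses, was at 28.8, 34.3, 37.1, 42.5, 43.3 and 19.5 RPKM in BL6 replicates 1 to 6 and at 6.81 to 17.5 RPKM (median 12.7) in FVB. All BL6 tumours were above all FVB tumours, BL6 replicate 6 being the lowest, and the difference was 1.38 ± 0.19 (adjusted p = 0.000208). Tumours of BL10 (37.9 to 46.8 RPKM) and MOLF (28.0 to 55.1 RPKM) were at the BL6 level and those of CAST (9.80 to 21.7 RPKM) nearer to FVB. The other 9 were not called. Nnt, the mitochondrial transhydrogenase that C57BL/6J but not C57BL/6N mice lack, was at 7.66 to 13.6 RPKM in BL6 and 5.76 to 14.0 RPKM in FVB (-0.02, adjusted p = 0.961). The glyoxalase Glo1 differed by 0.37 (adjusted p = 0.0674) and the respiratory supercomplex factor Cox7a2l by 0.27 (adjusted p = 0.313). The lymphocyte antigen genes Ly6a and Ly6c1 differed by -0.45 and 0.34, Trim30a by -0.55, Ifi202b by -0.67, Entpd4 by -0.28 and Wdfy1 by -0.17.

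The ribosomal protein gene Rpl29, of the large subunit, was at 344, 427, 341, 373, 506 and 735 RPKM in BL6 replicates 1 to 6 and at 90.3 to 156 RPKM (median 135) in FVB. The strains did not overlap, and the difference was 1.76 ± 0.15 (adjusted p = 3.92e-07) and 1.61 without BL6 replicate 6. It was called within both series of library names, by 1.50 in sample101x and 2.22 in KS, the latter with BL6 replicate 6, its highest tumour. BL10 tumours had 359 to 544 RPKM, MOLF 358 to 785 and CAST 243 to 284, all above FVB. The FVB mouse with the MOLF entry, at 106 RPKM, fell in the FVB range. Of 12 ribosomal genes listed apart from Rpl29, only Rps18 was called, at 800 to 1254 RPKM in BL6 against 292 to 711 RPKM in FVB (1.14 ± 0.15, adjusted p = 0.000189), and the list median was 0.21. Both genes have processed copies in the genome, so their values are uncertain.

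Further genes with large differences had diverse roles. Pop4, a subunit of RNase P and RNase MRP, was at 16.5 to 27.4 RPKM in BL6 and 3.39 to 8.97 RPKM in FVB (1.49 ± 0.16, adjusted p = 1.48e-05). Zfp239, a zinc finger gene, was at 4.07 to 10.5 against 1.03 to 3.48 RPKM (1.59 ± 0.19, adjusted p = 4.53e-05), and Metap1d, a mitochondrial methionine aminopeptidase, at 7.67 to 17.5 against 2.25 to 7.32 RPKM (1.40 ± 0.20, adjusted p = 0.000278). None of these 3 overlapped between the strains. In the other strains they parted, since BL10 tumours had 7.65 to 10.0 RPKM of Zfp239 while CAST and MOLF tumours had at most 3.28, whereas Pop4 was at 11.6 RPKM or more in BL10, CAST and MOLF alike.

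Deptor, an inhibitor of the mTOR kinase, was at 76.0, 33.6, 89.1, 90.7, 40.4 and 29.2 RPKM in BL6 replicates 1 to 6 and 6.37 to 30.4 RPKM (median 16.9) in FVB. Only BL6 replicate 6 fell within the FVB range, and the difference was 1.73 ± 0.31 (adjusted p = 0.00239). Within sample101x Deptor differed by 2.23 and within KS by 0.81 (adjusted p = 0.0451 and 0.236). Epdr1, a lysosomal ependymin-related gene, was at 1.00 to 7.44 RPKM in BL6 and 0.0600 to 2.84 RPKM in FVB (1.45 ± 0.31, adjusted p = 0.00856). Shfm1, a proteasome subunit that also binds BRCA2, was at 210 to 536 and 48.4 to 247 RPKM (1.42 ± 0.31, adjusted p = 0.00961), though it differed by 0.23 within sample101x and 1.82 within KS. Of 7 metastasis susceptibility genes tested, the cell adhesion gene Cadm1 alone was called, at 9.16 to 17.1 RPKM in BL6 and 4.40 to 9.48 RPKM in FVB (0.88 ± 0.14, adjusted p = 0.00127). The other 6 lay between -0.16 and 0.22, namely Sipa1, Rrp1b, Rnaseh2c, Nup210, Arid4b and Cnot2.

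**Figure D4:**
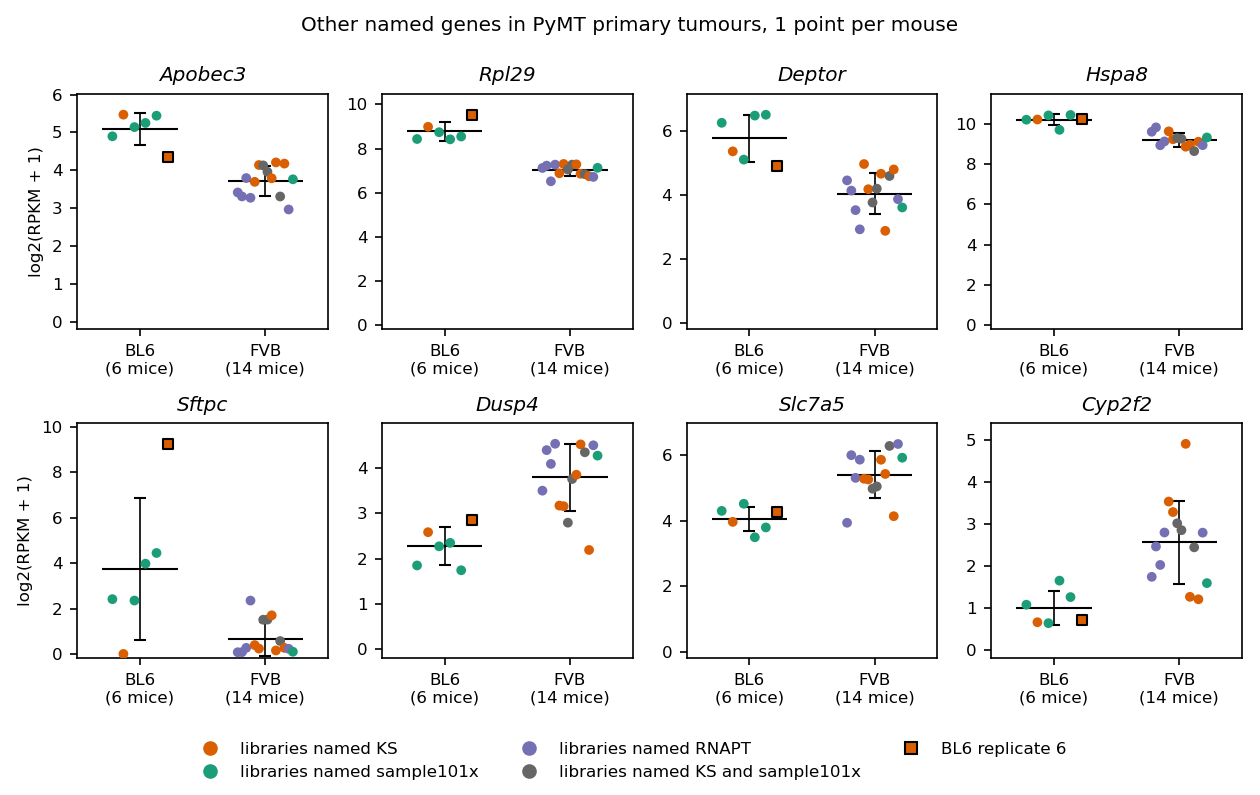
Level of 8 further genes as log2(RPKM + 1) in 6 BL6 and 14 FVB mice, with points, line, bar and square as in the plot of MHC genes. Apobec3 and Rpl29 do not overlap, Sftpc stands at 607 RPKM in BL6 replicate 6, and Dusp4, Slc7a5 and Cyp2f2 are lower in BL6.

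Sftpc was called higher in BL6 by 3.07 ± 0.79 (adjusted p = 0.0257), and by 1.97 without BL6 replicate 6 (adjusted p = 0.0355). It was at 4.34, 4.11, 14.8, 20.9, 0 and 607 RPKM in BL6 replicates 1 to 6 and at 0.0529 to 4.11 RPKM (median 0.203) in FVB. Thus 4 further BL6 tumours, all named sample101x, were at 4.11 RPKM or more. Against the FVB columns named PT it was at adjusted p = 0.160, and without BL6 replicate 4 at 0.0646. The other alveolar type 2 genes tested were not called, with Sftpd at 0.43, Slc34a2 at -0.16 and Abca3 at -0.09. Alveolar type 1 genes summed to 32.9 RPKM in BL6 replicate 6, 6.85 to 11.4 RPKM in the other BL6 tumours and 1.50 to 8.67 RPKM in FVB tumours. Healthy lung of the series had 8282 to 13722 RPKM of Sftpc. The part of lung RNA in this difference was not tested.

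Few markers of the tumour epithelium and stroma passed the test. Milk protein genes (11 tested), fibroblast matrix genes (20), endothelial genes (10), proliferation genes (18) and cholesterol synthesis genes (17) had 0 called by limma, with medians from -0.21 to 0.21, and only 2 of them, both endothelial, had an unadjusted p under 0.05. Without BL6 replicate 6 the fibroblast median was 0.62, with 0 called. Csn3, a casein, was at 977.6 to 25190.2 RPKM in BL6 and 473 to 12039 RPKM in FVB, and Pcna, the replication clamp, at 78.6 to 179 and 45.9 to 191 RPKM. Of 11 luminal genes the tight junction gene Cldn3 was lower, at 62.0 to 131 RPKM in BL6 against 104 to 242 RPKM in FVB (-0.75 ± 0.17, adjusted p = 0.0113). Of 7 hormone receptor and luminal regulator genes the estrogen receptor coactivator Cited1 was higher (0.95 ± 0.22, adjusted p = 0.0139). With the series as a term Cldn3 and Cited1 were at adjusted p = 0.141 and 0.0528. Fibroblast genes summed to 102 RPKM in BL6 replicate 6, 391 to 726 RPKM in the other BL6 tumours and 51.6 to 863 RPKM in FVB tumours.

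Among 11 basal and myoepithelial genes 3 were higher and 0 lower, against 2.79% and 3.79% of all genes tested, with a median of 0.37. The 3 were contractile genes, which smooth muscle and myofibroblasts also express. Acta2, smooth muscle actin, was at 18.7 to 34.8 RPKM in BL6 and 3.38 to 31.6 RPKM in FVB (1.39 ± 0.38, adjusted p = 0.0341), Tagln, transgelin, at 19.3 to 39.5 and 4.58 to 26.6 RPKM (1.15 ± 0.30, adjusted p = 0.0258), and Cnn1, calponin, at 0.681 to 5.01 and 0.0539 to 2.88 RPKM (1.09 ± 0.25, adjusted p = 0.0137). Without BL6 replicate 6, Acta2 and Tagln were at adjusted p = 0.0668 and 0.0643, and with the series as a term at 0.0549 and 0.0668. Krt5, Krt14 and Trp63, which mark the basal layer itself, differed by -0.27, 0.58 and -0.07 and were not called.

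Of 10 heat shock genes 2 were higher in BL6 and 0 lower, against 2.79% and 3.79% of all genes tested. All 10 differences were positive, against 5255 of 11465 over all genes, with a median of 0.41. Hspa8, the constitutive HSP70 chaperone, was at 827 to 1379 RPKM (median 1186) in BL6 and 397 to 901 RPKM (median 577) in FVB, with only BL6 replicate 3 inside the FVB range (1.00 ± 0.15, adjusted p = 0.000781). Hsph1, an HSP110 that exchanges nucleotide on HSP70, was at 17.3 to 53.9 and 7.89 to 32.3 RPKM (1.08 ± 0.27, adjusted p = 0.0208). The stress-induced pair Hspa1a and Hspa1b differed by 0.03 and 0.25. Hspa8 has processed copies, so its value is uncertain. The Hsph1 promoter window, chr5:149636337-149636586 on the minus strand of GRCm38.p6, is shown because it holds the heat shock element letters TTCNNGAA, in capitals, 33 bases before the start. RefSeq gives a second Hsph1 start with an overlapping window, chr5:149636316-149636565, which also holds them. Those letters read the same on both strands and occurred in 7.17% of all windows.
Hsph1: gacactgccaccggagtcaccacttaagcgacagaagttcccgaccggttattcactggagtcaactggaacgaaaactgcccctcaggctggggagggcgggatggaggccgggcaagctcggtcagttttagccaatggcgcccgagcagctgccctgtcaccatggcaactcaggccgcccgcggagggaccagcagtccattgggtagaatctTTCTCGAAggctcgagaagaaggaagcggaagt

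The genes lower in BL6 included feedback and nutrient genes. Dusp4, a phosphatase that switches off ERK, was at 2.35 to 6.27 RPKM (median 3.97) in BL6 and 3.57 to 22.2 RPKM (median 14.7) in FVB, a difference of -1.51 ± 0.30 (adjusted p = 0.00559). Within sample101x Dusp4 differed by -1.84 and within KS by -0.66 (adjusted p = 0.0781 and 0.420). Spred2, a membrane inhibitor of RAS signalling, was at 3.10 to 4.64 and 4.76 to 9.11 RPKM with no overlap (-0.52 ± 0.12, adjusted p = 0.0117). The remaining 9 of 11 RAS-MAPK feedback genes were not called, Dusp6 and Spry4 among them at 0.08 and 0.02. Slc7a5, which imports large neutral amino acids, was at 10.3 to 21.8 RPKM in BL6 and 14.3 to 79.6 RPKM in FVB (-1.35 ± 0.29, adjusted p = 0.00948). All 12 amino acid stress genes had negative differences, with a median of -0.42, and 2 were called, Slc7a5 and Sesn2, a sensor of leucine (-0.51 ± 0.14, adjusted p = 0.0316). Over all genes tested 3.79% were called lower. Bbc3, the p53 target PUMA, was at 1.78 to 3.40 and 3.42 to 7.75 RPKM without overlap (-0.80 ± 0.14, adjusted p = 0.00213). With the series as a term Sesn2 and Bbc3 were not called (adjusted p = 0.259 and 0.139).

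Ptges, which makes prostaglandin E2, was at 1.48 to 6.14 RPKM in BL6 and 5.27 to 27.3 RPKM in FVB (-1.57 ± 0.32, adjusted p = 0.00654). The connexin gene Gjb1 was at 0.577 to 3.08 and 1.49 to 19.4 RPKM (-1.61 ± 0.39, adjusted p = 0.0166), and Rnd2, a small GTPase, at 2.16 to 6.93 and 6.24 to 19.7 RPKM (-1.29 ± 0.22, adjusted p = 0.00213). The amino acid transporter family member Slc38a6 was at 158 to 331 and 261 to 1168 RPKM (-1.23 ± 0.26, adjusted p = 0.00808). For each of these 4 the ranges of the strains overlapped. Slc30a2, a zinc exporter of the lactating gland, was lower by -1.25 ± 0.32 (adjusted p = 0.0246), Scand1, a SCAN domain gene, by -1.58 ± 0.36 (adjusted p = 0.0127) and the neurotrophic ligand Nrtn by -1.50 ± 0.44 (adjusted p = 0.0415). With the series as a term Gjb1, Scand1 and Nrtn were at adjusted p = 0.0561, 0.374 and 0.683. Cyp2f2, a cytochrome P450 of airway club cells, was at 0.560 to 2.15 RPKM in BL6 and 1.32 to 29.3 RPKM in FVB (-1.57 ± 0.40, adjusted p = 0.0224), and at adjusted p = 0.0510 without BL6 replicate 6.

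Single genes of further lists were lower in BL6. They were Junb, an immediate early transcription factor (-0.94 ± 0.28, adjusted p = 0.0488), the clock genes Cry1 (-0.49 ± 0.12, adjusted p = 0.0222) and Dbp (-0.72 ± 0.20, adjusted p = 0.0375), Uqcrc1 of respiratory complex III (-0.51 ± 0.14, adjusted p = 0.0291) and the lipase Lipe (-0.77 ± 0.21, adjusted p = 0.0340). With the series as a term Junb, Dbp and Lipe were not called (adjusted p = 0.210, 0.201 and 0.0958). In each list at most 2 of 6 to 17 genes were called. Of 18 hypoxia and glycolysis genes 0 were called, although 9 had an unadjusted p under 0.05, against 2754 of all 11465, and the median was -0.56. Ldha and Eno1, its most abundant members, differed by -0.04 and -0.07.

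**Figure D5:**
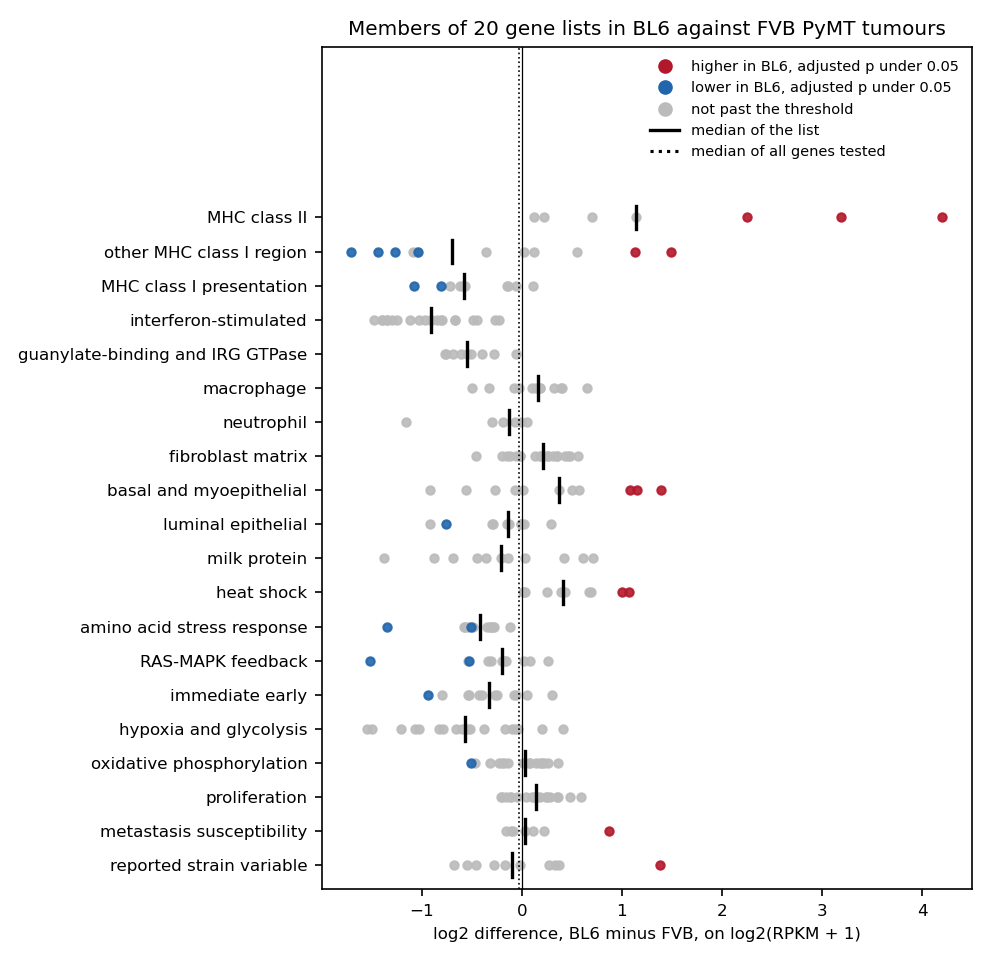
Difference in log2(RPKM + 1), BL6 minus FVB, of each tested member of 20 gene lists, coloured by whether it passed an adjusted p under 0.05. Vertical marks are list medians and the dotted line is the median of all 11465 genes, -0.03. The class II list extends to 4.20 while the interferon-stimulated list lies wholly below 0.

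Lung metastases gave a second view of the same strains, in other libraries that by their titles came mostly from the same mice. They are thus not independent of the tumours. With 6 BL6 and 13 FVB mice, 231 of 11685 genes (1.98%) were higher and 131 (1.12%) lower in BL6. Library names of the series sample101x occurred only in these BL6 metastases and names of RNALM only in the FVB ones, while KS occurred in both. Strain and series were thus partly confounded, and no fit of metastases had the series as a term. Of the 320 genes higher in BL6 tumours 317 were tested there, 316 had the same direction and 110 (34.7%) were called in it. Of the 435 lower genes 433 were tested, 419 had the same direction and 55 (12.7%) were called in it. For both, 0 were called in the opposite direction. The share of all tested genes with the same direction in both tissues is not given here. H2-Eb1 was at 14.1 to 125 RPKM in BL6 and 0.163 to 15.7 RPKM in FVB metastases (4.40, adjusted p = 2.46e-05), and the overlap came from FVB metastasis replicate 6, whose alveolar type 2 genes summed to 79027 RPKM, the most of these. Rpl29 was at 391 to 554 and 88.2 to 162 RPKM (1.91, adjusted p = 5.43e-09) and Apobec3 at 24.5 to 31.9 and 5.55 to 15.5 RPKM (1.29, adjusted p = 0.000677), neither overlapping.

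Some tumour differences were absent from the calls in metastases. H2-Q10 differed by 0.00 and H2-D1 by -0.52 (adjusted p = 0.478), Sftpc by -1.38 (adjusted p = 0.648) and Dusp4 by -1.18 (adjusted p = 0.0765). Slc7a5 (-1.43, adjusted p = 0.0233), Slc38a6 (-1.17, adjusted p = 0.0261) and Rnd2 (-0.89, adjusted p = 0.0212) were called in both tissues. Whether the effect of strain differed between tumours and metastases was not tested.

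Few genes were called between BL6 tumours and those of BL10, the other H-2b strain. Of 11150 genes tested 0 were higher in BL6 than in BL10 and 6 (0.0538%) lower (limma, adjusted p under 0.05), namely Kifc3, Alad, Cited4, Zfp580, Lyrm7 and Macrod1, named because they were so few. At an unadjusted p under 0.05 there were 1227. This comparison shares its BL6 tumours with the one above, so the values are set side by side. H2-Eb1 differed by 4.20 from FVB and by -0.14 from BL10, Rpl29 by 1.76 and -0.02, Apobec3 by 1.38 and -0.30, Metap1d by 1.40 and 0.00, and Hspa8 by 1.00 and 0.55. Other named genes were about as far from BL10 as from FVB, though not called against BL10. Rnd2 differed by -1.29 from FVB and -1.29 from BL10, Scand1 by -1.58 and -1.73, Nrtn by -1.50 and -1.77, Sftpc by 3.07 and 3.02, and H2-Q10 by -1.70 and -1.16. With the series as a term, the differences from FVB were -0.68 for Rnd2, -0.53 for Scand1 and -0.33 for Nrtn. Those of Sftpc and H2-Q10 were 3.06 and -1.66. Most BL10 tumours had library names of the series KS and most BL6 tumours of sample101x, so strain and series were partly confounded here as well. A gene that was not called may still differ between BL6 and BL10.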

How the data were processed

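Tumours were snap frozen and their mRNA sequenced on the HiSeq2500 (TruSeq v4), per the labels' protocols. The deposited table holds, for 20188 genes, RPKM that the authors computed by setting read counts relative to transcript length and library size. TopHat, DESeq2 and build mm9 appear in the submitters' processing notes, without versions and without how DESeq2 entered the values. Strand handling of the counting is not given in the sources used here. Counted reads were recovered from the equal steps of low RPKM values. Only genes with all values within 0.001 reads of a whole number were used, so that closeness is no check. The total was the one that made the most transcript lengths whole, 99.86% over 3582 genes.

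BL6 tumours were taken by title and FVB tumours by column name. The selection rule read strictly takes 5 FVB columns named PT. All 18, which also carry the endings AX and ING, were used, and the strict set is an alternative. Libraries of a mouse were averaged. Genes at 1 RPKM or more in at least 6 mice were tested on log2(RPKM + 1) with limma 3.58.1 (trend and robust moderation, R 4.3.3, statmod 1.5.0, data.table package at version 1.17.8) and called at a Benjamini-Hochberg adjusted p under 0.05. The fit was tested on simulated data. Ratios were compared with a two-sided exact permutation test (scipy 1.17.1). Figures used matplotlib 3.10.9 with numpy 2.4.6 and pandas 2.3.3. Gene order and promoters came from RefSeq GRCm38.p6, whose coordinates are not those of mm9.

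Members, gene lists and tests were chosen with earlier results of these data known. Named genes were called with and without BL6 replicate 6, in the same direction, with a difference of 2-fold or more and a mean of 5 RPKM or more in the higher strain. Of 62 such genes, 39 higher and 23 lower, the 12 largest in each direction were named, leaving out 11 and 4 predicted or small RNA genes. Up to 4 called members of each list were added, all members of the strain-variable, metastasis susceptibility and tested alveolar type 2 lists, and the 2 most abundant members of a list with none called, of which not all are printed. A gene first placed in the metastasis susceptibility list is not reported here. Alternatives changed the mice and libraries entered, the pseudocount, the filter, the scaling, the averaging, the series term and the moderation. Mice of a strain are the replicates, and p-values set the difference between strains against the spread among mice.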

Additional observations from a re-analysis of the deposited data

Results flagged for a closer look

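Among 135 genes and gene list sums examined in the 6 BL6 tumours, 18 had a single tumour far from the other 5 by Dixon's criterion, which chance meets in about 1 in 20 groups. Replicate 6 held 7 of these values. It had been singled out beforehand for its surfactant RNA, so its alveolar values restate that choice. It was high for the alveolar genes, with a type 2 sum of 701 RPKM (18.9 to 59.7 in the other 5), a type 1 sum of 32.9 RPKM (6.85 to 11.4), the surfactant gene Sftpd at 16.5 RPKM (0.240 to 1.67) and the type 1 receptor Ager at 15.3 RPKM (0.498 to 1.62). It was low for fibroblast matrix genes at 102 RPKM (391 to 726), for the matrix gene Postn at 11.9 RPKM (71.5 to 159.6) and for macrophage genes at 146 RPKM (226 to 263).

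Replicate 2 held 9 values. Milk protein genes summed to 1621 RPKM there (11358 to 27015 in the other 5), with the casein Csn3 at 977.6 RPKM (7789 to 25190.2). Keratinocyte genes summed to 62.6 RPKM (4.00 to 11.3), with the keratin Krt79 at 57.7 RPKM (1.62 to 4.85). The same tumour was lowest for Zfp239 at 4.07 RPKM (9.55 to 10.5), Epdr1 at 1.00 RPKM (6.05 to 7.44), the lactate dehydrogenase gene Ldha at 299.9 RPKM (579.97 to 854) and the malic enzyme Me1 at 18.6 RPKM (34.3 to 42.8). It was highest for Cnot2, a subunit of the CCR4-NOT deadenylase, at 32.4 RPKM (22.8 to 25.1). Without this tumour 511 genes were called between BL6 and FVB, against 755 with it.

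In replicate 3 Hspa8 was at 827 RPKM (1172 to 1379 in the others) and heat shock genes summed to 1793 RPKM (2580 to 3161).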

How the results depend on the processing

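Between BL6 and FVB tumours 755 genes were called, 320 higher and 435 lower. No named gene that was called turned its direction under any alternative. Within subsets of fewer mice most lost the call, with 7 of 47 keeping it in sample101x, 15 in KS and 16 among columns named PTAX. Without BL6 replicate 6 there were 495 (236 lower). Leaving out 1 BL6 mouse gave 364 to 624 calls, and 1 FVB mouse 528 to 835, with 163 to 355 higher and 201 to 480 lower over both, except that leaving out the FVB mice of replicates 9 and 17 gave 839 and 958. The series of library names as a term gave 489 (271 lower), the series sample101x alone 47 (37 and 10), the series KS alone 1290 (945 lower), the columns named PTAX 115 (80 and 35) and every library as its own sample 267 lower. Pseudocount 0.1, no filter, median-ratio scaling and a fit of 5 strains gave 778 to 991. The strict FVB set (842), the columns named PTAX and each FVB mouse left out apart from replicate 9 were added after the data were seen. Of 47 named genes called, 39 kept the call without replicate 6, 30 with the series term and 43 under rescaling. The 12 largest differences in each direction were named only where called without replicate 6, so the 39 are in part fixed by that choice. Of all 320 higher and 435 lower genes, 217 and 219 kept the call without replicate 6.

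Between metastases 362 genes were called, 215 (130 and 85) without BL6 metastasis replicate 8, while without FVB metastasis replicate 6 there were 237 lower. Against BL10, 6 genes were called, 0 without a filter, 0 under rescaling and 26, all lower, without BL6 replicate 6. No paired analysis was possible because the BL6 and FVB tumours came from different mice. In a transcript of 1 kilobase, depth sets a read at fractions of an RPKM, so values near 0 rest on few reads.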

Other observations

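Some genes that differed between BL6 and FVB tumours lay beside one another. In RefSeq order on GRCm38.p6, 11429 of the 11465 genes tested could be placed, and of the 752 called ones placed 173 had a called neighbour among the tested genes, in 19 runs of at least 3. No test was made of how often neighbours would be called together by chance. The class II run was Tap2, lower, then H2-Ab1, H2-Aa and H2-Eb1, all higher. Apobec3 lay in a run of 4 higher genes with Cbx6 and Cbx7, which encode Polycomb chromobox proteins, and the unnamed transcript D730005E14Rik. Zinc finger genes named Zfp were in 5 runs, picked out after the runs were seen. Of these 3 were higher, Zfp58 with Zfp87 and Zfp748, Zfp472 with Zfp952 and Zfp763, and Zfp157 with Zfp68, and the other two lower, Zfp574 and Zfp526 with Dedd2, and Zfp503 with Comtd1. H2-D1, H2-Q1 and H2-Q2 formed a lower run. Pnp and Pnp2, adjacent copies of purine nucleoside phosphorylase, were both higher, by 1.31 and 1.37, and their reads may be shared. Chromosome 17, which carries the MHC, held 14 of the genes at least 2-fold apart among 584 tested, and chromosome 2 held 12 among 898. These were the highest counts of any chromosome and were picked out for that. Over all 11465 genes 56 were higher and 30 lower by at least 2-fold. The chromosome 2 genes include a run of 4 adjacent predicted genes, Gm8898, 0610010B08Rik, Gm14434 and Gm14308.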
